A study of Homo sapiens with 4 samples.

Results

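DNA methylation was examined at 10 windows over known imprinted regions, which lie at PLAGL1, MEST, PEG10, GRB10, H19, KCNQ1OT1, MEG3, NNAT, GNAS and DIRAS3. The windows are set by their hg19 coordinates. Together they held 3290 of the 27710999 CpGs measured on the autosomes and X, or 0.0119%. Each window held 146 to 1559 CpGs, and 971 to 18309 reads fell on its CpGs in each library.

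WT HEK293T cells, an established line of human embryonic kidney origin, were compared with a ZNF274KO derivative of the same line. The missing protein, ZNF274, is a KRAB zinc finger protein that takes part in gene silencing. The knockout was made with Cas9 and guides on both sides of the gene, puromycin selection and sorting of single cells. Each group had 2 libraries of enzymatic methyl sequencing (EM-seq), in which unmethylated cytosines are converted and read as T while methylated cytosines are read as C. Nothing in the labels says whether the libraries of a group came from separate clones or cultures. The p-values thus measure the spread between these libraries, which may be technical. For each region the tests also draw this spread toward that of the other regions fitted.

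The libraries held between 241598512 and 295114493 reads over CpGs, with a median depth of 8 to 10 reads per CpG. The level of methylated CpG (mCG), the share of reads at CpGs that carry a methylated C, was 58.4% to 60.4% across the genome. The ZNF274 gene held 5158 and 4274 reads over its 501 CpGs in the WT libraries, and 0 and 14 reads in the ZNF274KO libraries.

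At an imprinted gene, the copies inherited from the mother and from the father differ in activity. At most of them the difference is set in the germ line by DNA methylation of a control region. In somatic tissue with 1 copy from each parent, such a region is methylated on 1 copy only. About equal numbers of methylated and unmethylated reads are then seen. After fertilisation these marks are kept by KRAB zinc finger proteins such as ZFP57 and ZNF445, which bind methylated DNA and recruit TRIM28 and, with it, SETDB1 and DNA methyltransferases. The authors describe HEK293T cells as triploid, so equal numbers need not be seen in them. The copies from each parent at the windows were not determined.

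The sequences of 3 windows are shown because they mark the ends of the range of levels found in these cells: PLAGL1 was nearly free of methylation, and MEST and GRB10 were nearly fully methylated. Each is the stretch of 240 bases with the most CpGs in its window outside annotated untranslated regions, on the plus strand of GRCh37, with the CpGs in capitals. The PLAGL1 stretch (chr6:144328970-144329209) overlaps an exon of the non-coding RNA HYMAI. The MEST stretch (chr7:130130706-130130945) overlaps an exon of the antisense RNA MESTIT1 and runs past the MESTIT1 start at position 130130874. The GRB10 stretch (chr7:50849865-50850104) lies in an intron of GRB10.
PLAGL1: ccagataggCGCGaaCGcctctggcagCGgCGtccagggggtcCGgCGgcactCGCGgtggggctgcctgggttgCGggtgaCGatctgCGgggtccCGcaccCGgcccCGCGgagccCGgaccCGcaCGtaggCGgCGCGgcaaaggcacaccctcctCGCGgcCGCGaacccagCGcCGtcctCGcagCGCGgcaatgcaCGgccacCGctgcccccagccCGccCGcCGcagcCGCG
MEST: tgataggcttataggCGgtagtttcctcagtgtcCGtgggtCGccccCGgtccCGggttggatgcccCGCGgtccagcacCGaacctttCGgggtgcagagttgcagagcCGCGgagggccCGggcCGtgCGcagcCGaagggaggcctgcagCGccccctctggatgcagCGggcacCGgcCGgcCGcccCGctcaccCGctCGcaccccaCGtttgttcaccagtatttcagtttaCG
GRB10: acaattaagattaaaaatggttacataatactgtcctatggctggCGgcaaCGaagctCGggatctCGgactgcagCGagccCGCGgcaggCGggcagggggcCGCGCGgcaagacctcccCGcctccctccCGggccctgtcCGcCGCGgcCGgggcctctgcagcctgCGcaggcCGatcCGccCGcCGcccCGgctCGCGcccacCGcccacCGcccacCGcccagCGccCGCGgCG

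The 38 CpGs of the PLAGL1 stretch had mCG levels of 0%, 0%, 0% and 0.351% in WT 1, WT 2, ZNF274KO 1 and ZNF274KO 2, on 285 to 439 reads per library. A count of 0, taken as fewer than 3 reads, allows levels of up to 1.04%, 0.688% and 0.683% in the first 3 of these libraries, for counting error only. The stretch was thus free of methylation in both groups but for a single library at a trace level. The 25 CpGs of the MEST stretch were at 90.8%, 94.8%, 91.7% and 94.8% in the same order. The 32 CpGs of the GRB10 stretch were at 97.2%, 98.1%, 95.05% and 97.2%, so that all 3 stretches kept in ZNF274KO the class of level they had in WT.

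Across whole windows, 6 stood well above the genome-wide level. GRB10 (chr7:50848000-50852000), a gene for an adaptor protein of receptor tyrosine kinases, had mCG levels of 94.4% and 94.7% in the WT libraries and 89.8% and 93.4% in the ZNF274KO libraries. Both ZNF274KO libraries were lower, and ZNF274KO 1 stood apart from the other 3. MEST (chr7:130130000-130134500), a gene expressed in mesoderm, was at 90.9% and 93.2% in WT and at 91.3% and 92.7% in ZNF274KO. NNAT (chr20:36148000-36151000), the gene of the membrane protein neuronatin inside the BLCAP gene, was at 90.2% and 91.0% in WT and at 90.8% and 87.5% in ZNF274KO. In both windows the groups overlapped.

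PEG10 (chr7:94285000-94288000), a gene derived from a retrotransposon that shares its control region with SGCE, was at 85.3% and 87.3% in WT and at 87.3% and 82.9% in ZNF274KO. MEG3 (chr14:101290000-101294500), a long non-coding RNA gene whose promoter, not the germ-line control region upstream of it, lies in the window, was at 85.0% and 83.2% in WT and at 82.9% and 81.8% in ZNF274KO. The MEG3 groups did not overlap, although the nearest libraries of the 2 groups differed by less than the libraries within either group. DIRAS3 (chr1:68511000-68517500), the gene of a small GTPase, was at 75.6% and 79.6% in WT and at 76.5% and 73.3% in ZNF274KO, with overlapping groups. Around DIRAS3, reads per CpG within 1 Mb of the window were 1.52 to 1.61 times the autosomal mean in the 4 libraries, and the part of this in its level was not tested.

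At H19 and KCNQ1OT1 the level was intermediate. H19 (chr11:2018800-2024700), a long non-coding RNA gene whose control region insulates IGF2 from enhancers, was at 48.7% and 46.8% in WT and at 45.3% and 45.7% in ZNF274KO. Both ZNF274KO libraries were lower by a small margin. KCNQ1OT1 (chr11:2719000-2723500), an antisense RNA that starts inside KCNQ1, was at 34.1% and 39.99% in WT and at 30.1% and 36.9% in ZNF274KO. These groups overlapped, and the libraries within each group differed by more than the group means did.

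GNAS and PLAGL1 completed the set. GNAS (chr20:57414000-57472000), a locus with several promoters that encodes the stimulatory G protein alpha subunit, was at 66.6% and 64.3% in WT and at 65.4% and 64.6% in ZNF274KO. PLAGL1 (chr6:144328000-144330500), a gene for a zinc finger transcription factor, was at 13.2% and 10.7% in WT and at 10.8% and 11.5% in ZNF274KO. Both windows had overlapping groups. Reads per CpG around PLAGL1 were 1.23 times the autosomal mean in WT 2 and 0.867 to 0.986 times in the other 3 libraries, and the part of this in the level was not tested. The same ratio was 1.23 to 1.28 around GNAS and 0.882 to 1.02 around the remaining 7 windows.

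**Figure D1:**
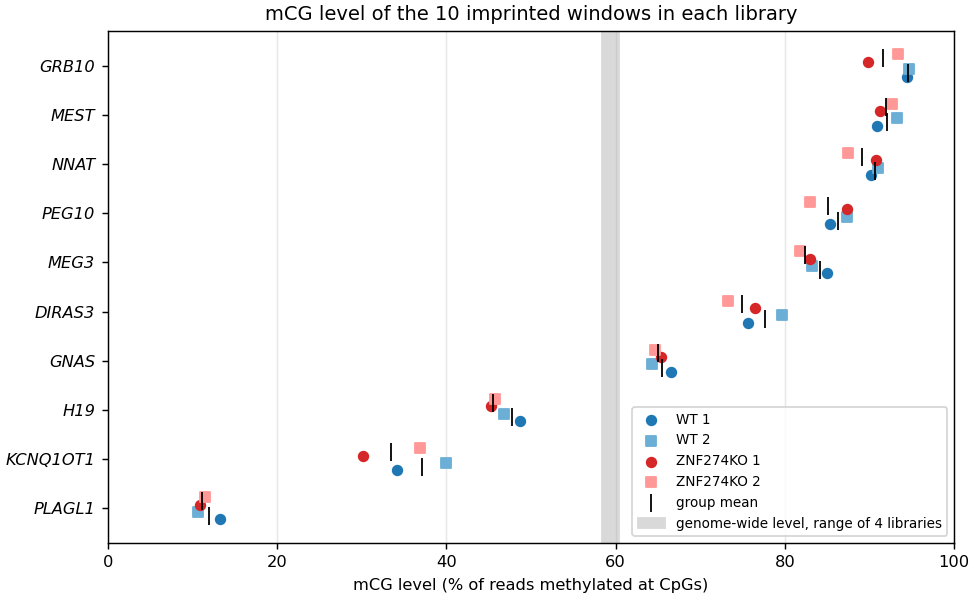
The mCG level (horizontal axis, % of reads methylated at CpGs) of each window in each of the 4 libraries, with vertical ticks for group means and a grey band for the genome-wide level. The windows spread from 11.1% (PLAGL1 in ZNF274KO) to 94.5% (GRB10 in WT), and the libraries of KCNQ1OT1 lie farthest apart, from 30.1% to 39.99%.

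In WT the order from low to high was PLAGL1 (11.97%), KCNQ1OT1 (37.1%), H19 (47.7%), GNAS (65.4%), DIRAS3 (77.6%), MEG3 (84.1%), PEG10 (86.3%), NNAT (90.6%), MEST (92.0%) and GRB10 (94.5%). The SD of the 2 WT libraries was 0.168 to 4.14 points. Among neighbours in this order, NNAT and MEST overlapped in their WT libraries, and the lower PEG10 library (85.3%) was hardly above the higher MEG3 library (85.0%). The other neighbours did not overlap in WT.

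Single CpGs were sorted by their level over the 4 libraries pooled, where at least 20 reads were available. In KCNQ1OT1, 87.7% of 211 CpGs lay between 20% and 80%, and in H19 74.9% of 243 CpGs did. Of all CpGs in the genome with that depth, 28.4% lay in this range. In GRB10 the range held 5.42% of 166 CpGs, in NNAT 3.21% of 156 and in MEST 7.62% of 223, and at least 91.0% of the CpGs of each were above 80%. The high levels of these 3 windows were therefore shared by nearly all their CpGs.

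In PLAGL1, 84.6% of 156 CpGs were under 20%, and the 11 CpGs over 80% made up 7.05%. PEG10 had 23.5%, MEG3 21.8% and DIRAS3 30.8% of their CpGs in the middle range, with most of the others above it. GNAS was the most mixed, with 14.2% of its 1441 CpGs under 20%, 38.8% in the middle range and 47.0% over 80%, the last of these equal to the share of all CpGs (47.0%).

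**Figure D2:**
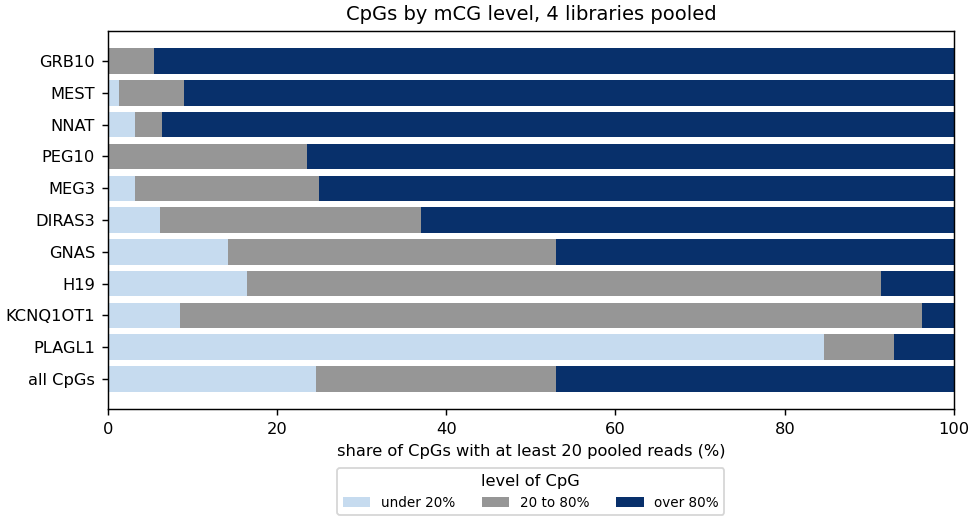
Share of CpGs (horizontal axis, % of CpGs with at least 20 reads over the 4 libraries) with levels under 20%, from 20% to 80% and over 80%, for each window and for all CpGs. The middle class holds 87.7% of CpGs in KCNQ1OT1 and 74.9% in H19, against 28.4% of all CpGs.

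The DNA next to the windows, 5000 bases on either side, gives their local background. KCNQ1OT1 stood out as a dip, with 37.1% in WT between flanks at 83.2% and 81.0%, and in ZNF274KO with 33.5% between 83.5% and 81.4%. PLAGL1 was likewise a dip, with 11.97% in WT between flanks at 71.9% and 60.3%. The opposite held at NNAT, where 90.6% in WT lay between 78.4% and 58.5%, and at DIRAS3, where 77.6% lay between 53.0% and 50.9%. H19 was below both flanks, which were at 79.5% and 60.7% in WT. Both ZNF274KO libraries were below both WT libraries in 5 of the 20 flanks, against 24.2% of tested 10 kb tiles of the genome, and above in 1, against 12.1% of the tiles. The differences of all flanks ranged from -4.19 points (before MEST) to 3.10 points (after H19).

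The comparison of ZNF274KO with WT asked whether the methylation of these regions differs in cells that lack ZNF274. No window passed the test. The edgeR quasi-likelihood test on methylated and unmethylated reads, fitted with all 10 kb tiles and adjusted by the Benjamini-Hochberg method, called 0 of 10 windows, with adjusted p from 0.540 to 0.995. With limma on log2 ratios the count was also 0, and by either tool 1 window had an unadjusted p under 0.05, against 6.5% of tiles by edgeR and 6.01% by limma. Among 282602 tiles edgeR called 1424, or 0.504%, and 1398 of these were higher in ZNF274KO, with a median rise of 30.2 points (quartiles 20.3 and 42.5).

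That rise comes from tiles selected for passing the test, and windows at 77.6% or more in WT had no room for its median. The differences of the windows were smaller than that rise. They ranged from -3.56 points in KCNQ1OT1 to -0.05 points in MEST with a median of -1.62 points, and over all tested tiles the median was -0.66 points with the 5th and 95th percentiles at -5.02 and 5.64. All 10 windows had a lower mean in ZNF274KO, as did 60.9% of the tiles, but leaving out 1 library turned the difference positive in PLAGL1 (up to 0.44 points), MEST (1.13), PEG10 (1.02), NNAT (0.19) and GNAS (0.74). The unweighted mean over CpGs was also positive in MEST (0.08) and NNAT (0.85). In 3 windows (GRB10, H19 and MEG3) both ZNF274KO libraries were below both WT libraries, as in 24.2% of the tiles, and in 0 windows both were above, as in 12.1% of the tiles. In 7 of the 10 windows the difference was smaller than the larger SD of the 2 groups.

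GRB10 was the window with an unadjusted p under 0.05 by edgeR. Its level was 94.5% ± 0.168 (SD, n = 2) in WT and 91.6% ± 2.57 (SD, n = 2) in ZNF274KO, a difference of -2.95 points with a 95% interval from -5.85 to -0.66. On the log2 odds scale the difference was -0.66 ± 0.22 (SE) by edgeR, with an unadjusted p of 0.0115 and an adjusted p of 0.540. The value turned on single ZNF274KO libraries. Without ZNF274KO 2 the difference was -4.77 points and the adjusted p by edgeR was 0.0351, and without ZNF274KO 1 it was -1.13 points with an adjusted p by edgeR of 0.9997.

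For the other windows the 95% intervals of the difference took in 0. The interval ran from -9.16 to 2.58 points for KCNQ1OT1, from -7.04 to 2.70 for H19 and from -7.38 to 1.43 for DIRAS3. GNAS had the upper bound farthest from 0, at 7.08 points, with a lower bound of -8.79. The width for GNAS depended on the regions it was fitted with. Its SE on the log2 odds scale was 0.234 with 10 kb tiles, 0.344 with 5 kb tiles and 0.114 with blocks of 200 CpGs. The SD of its libraries was 1.66 points in WT and 0.541 points in ZNF274KO. The upper bounds of all 10 windows lay below the lower quartile of the rises seen in called tiles (20.3 points). Those tiles were selected for passing the test, and windows at 84.1% or more in WT had no room for such a rise. The comparison thus cannot show that the windows did not change. An exact permutation test of 2 against 2 libraries cannot give a p below 0.333.

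**Figure D3:**
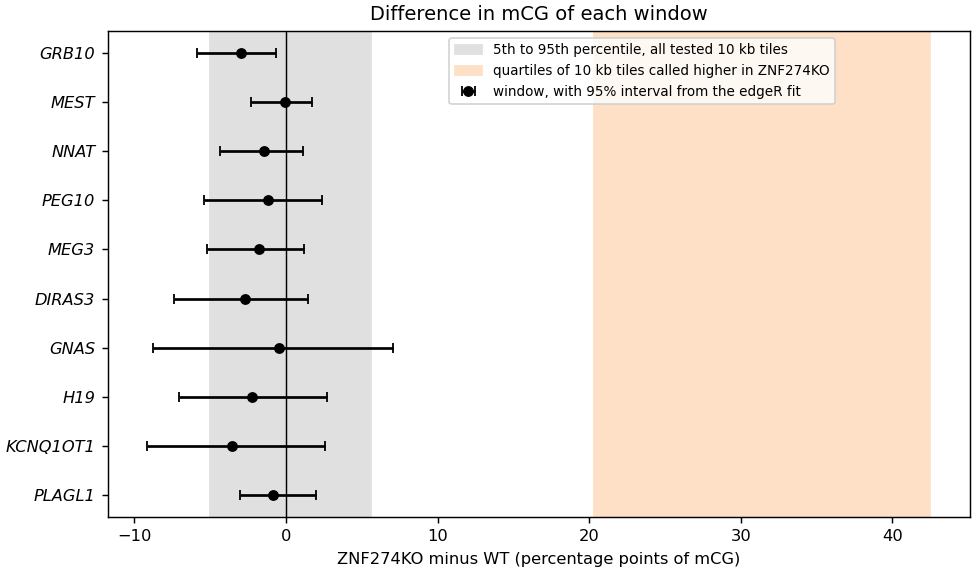
Difference in mCG of each window (horizontal axis, ZNF274KO minus WT in percentage points) with its 95% interval from the edgeR fit. The grey band covers the 5th to 95th percentile of all tested 10 kb tiles (-5.02 to 5.64) and the orange band the quartiles of the tiles called higher in ZNF274KO (20.3 to 42.5), and the point of every window lies in the grey band.

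The called tile nearest to any window lay 798 kb from GRB10 and was the only one within 1 Mb of a window. For PLAGL1 the nearest was 2340 kb away, for GNAS 3208 kb and for H19 61305 kb. The chromosomes of these windows held 1, 2 and 7 called tiles, and chromosome 14, which carries MEG3, had 0. The share of all 10 kb tiles within 1 Mb of a called tile was not counted. The distances thus have no background and are not a trait of the windows.

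In 6 of the 10 windows the difference had opposite signs on the 2 strands. On the Watson strand H19 was at 45.8% and 46.1% in WT and at 47.4% and 50.5% in ZNF274KO, and on the Crick strand at 51.5% and 47.5% against 43.3% and 41.7%. The difference was thus 2.97 points on the Watson and -7.02 points on the Crick strand. KCNQ1OT1 differed by 1.65 points on the Watson and by -11.3 points on the Crick strand. In MEG3 the difference was -3.72 points on the Watson and 0.17 points on the Crick strand, where the groups overlapped. The signs also differed in PLAGL1 (-1.75 and 0.52), MEST (-0.10 and 0.04) and GNAS (0.65 and -1.59). In GRB10 the difference was -1.10 points on the Watson and -5.05 points on the Crick strand. Neither strand alone gave a called window by edgeR. At an unadjusted p under 0.05 there were 3 windows on the Crick strand (GRB10, KCNQ1OT1 and H19), against 17345 of 282066 tiles, and 0 on the Watson strand, against 17226 of 282042 tiles.

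To see whether a change was hidden in the sums, 1 kb tiles with at least 10 CpGs were tested. A tile counted as inside a window if its centre lay there. Some tiles, such as that from 101294000 in MEG3, thus run past the window and hold CpGs outside it. The edgeR test called 0 of the 69 tiles inside the windows, against 5031 of 992869 (0.507%) over all such tiles, and limma also called 0. At an unadjusted p under 0.05 there were 4 tiles by edgeR and 2 by limma, against 6.94% and 6.85% of all such tiles. Both ZNF274KO libraries were below both WT libraries in 16 of 69 tiles, and 21.9% of all tiles were of this kind. They were above in 3 of 69, against 14.3% of all tiles. The median difference was -0.73 points inside the windows and -0.64 points over all tiles.

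The tile with the smallest p held the GRB10 start site at position 50850593 (chr7:50850000-50850999, 108 CpGs). Its level was 98.2% and 98.3% in WT, and 89.6% and 96.7% in ZNF274KO, so that ZNF274KO 1 stood apart. The difference was -5.10 points and the adjusted p by edgeR was 0.0955. The lower level was seen mainly on the Crick strand, where ZNF274KO 1 was at 83.7% on 349 reads and the other 3 libraries at 97.8% to 98.6%. On the Watson strand the 4 libraries were at 98.01%, 98.1%, 95.3% and 96.2%. With ZNF274KO 2 left out the difference was -8.66 points, while ZNF274KO 2 alone was at 96.7% against 98.2% and 98.3% in WT. The tile was called with the replicate number as a block (adjusted p by edgeR 0.00199). The labels do not say that these numbers pair the libraries, and over 10 kb tiles no shared shift was seen. By limma the smallest adjusted p of all tiles inside the windows was 0.542.

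The tile with the largest difference lay in KCNQ1OT1 upstream of its start (chr11:2722000-2722999, 29 CpGs). It was at 56.0% and 62.8% in WT and at 43.2% and 49.0% in ZNF274KO, on 169 to 215 reads per library. Both ZNF274KO libraries were lower, by -13.3 points on average, and the adjusted p by edgeR was 0.618. The difference was -23.8 points on the Watson strand and -3.48 points on the Crick strand, the reverse of the whole window, where the Crick strand differed more.

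In PEG10 the largest difference was in the first tile (chr7:94285000-94285999), at 76.5% and 82.1% in WT and at 74.6% and 69.2% in ZNF274KO, with an adjusted p by edgeR of 0.753. In the other windows the largest differences were -4.76 points in MEST (from position 130133000), -4.66 in MEG3 (101291000), -4.24 in DIRAS3 (68516000), -3.78 in H19 (2020000), -2.11 in PLAGL1 (144330000) and -0.93 in NNAT (36148000). None of these passed the test, with adjusted p by edgeR from 0.806 to 0.988.

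**Figure D4:**
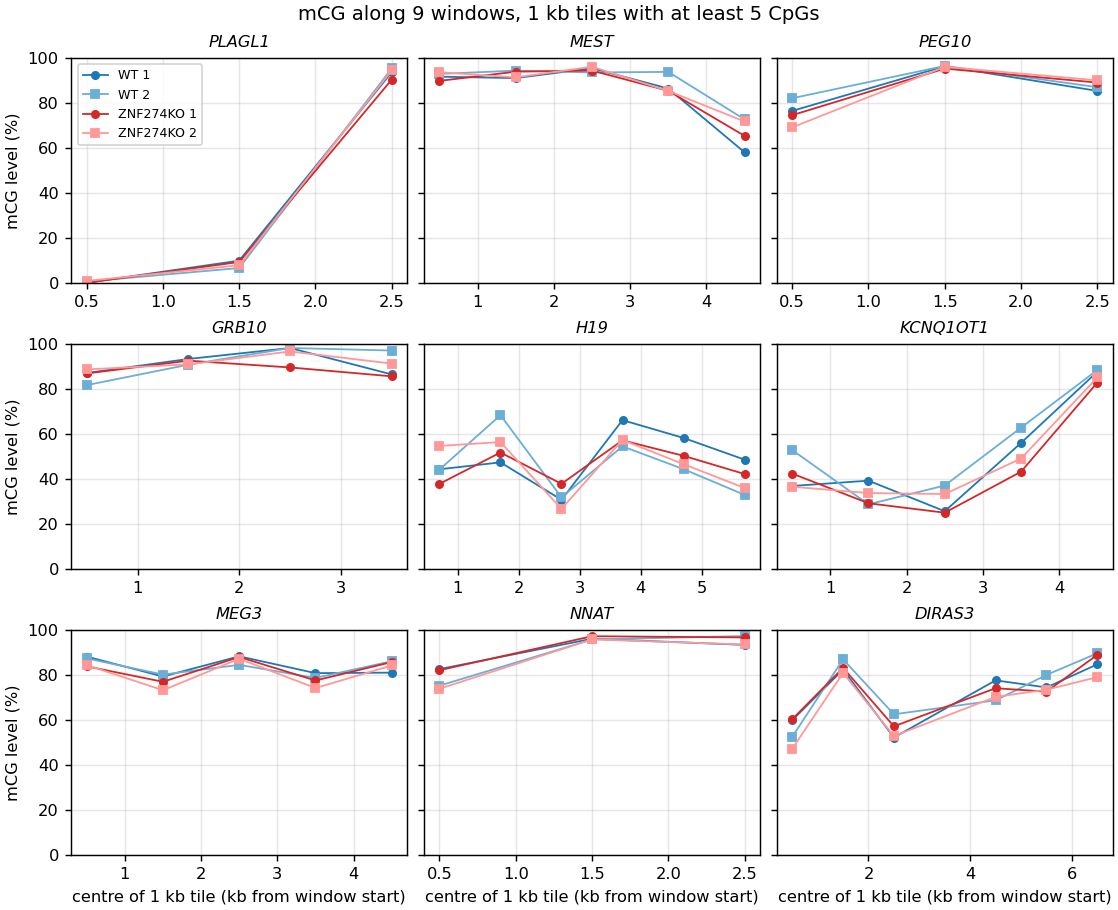
The mCG level (vertical axis, %) of 1 kb tiles with at least 5 CpGs along 9 windows (horizontal axis, kb from the window start), with a line per library. PLAGL1 climbs from near 0 to over 90%, KCNQ1OT1 climbs to over 80% at its far end and GRB10 shows ZNF274KO 1 below the others at 2.5 kb, while the lines of single libraries lie wide apart in H19 (47.3% in WT 1 and 68.4% in WT 2 at 1.7 kb).

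The tiles showed that levels within a window were not uniform. PLAGL1 went from 0.273% to 94.6% in WT over 3 tiles, so that its mean of 11.97% came from an unmethylated part beside a methylated end. Around the start of PLAGL1 itself (position 144329567, 500 bases on either side) mCG was 11.9% in WT and 11.95% in ZNF274KO, and around the start of HYMAI (144329399) it was 5.76% and 5.65%. At the start of KCNQ1OT1 (2721233) it was 32.1% ± 1.15 (SD, n = 2) in WT and 31.2% ± 3.70 (SD, n = 2) in ZNF274KO.

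In the highly methylated windows, the gene starts that lie inside the window were methylated too. Starts outside the windows could differ, since the promoter at the farthest upstream start of GRB10 (50861159) was at 2.27% in WT and 2.89% in ZNF274KO, and that of BLCAP (36156333) at 2.22% and 2.28%. The start of NNAT (36149608) was at 95.8% in WT and 96.1% in ZNF274KO, that of MEST (130131170) at 92.2% and 92.1% and that of MEG3 (101292435) at 87.8% and 87.6%. The start of DIRAS3 (68517400) was at 84.8% and 81.8%. The start of PEG10 (94285637) was at 78.5% and 87.8% in the WT libraries and at 79.9% and 70.3% in the ZNF274KO libraries, which overlapped. The start of SGCE (94285884), the gene of epsilon sarcoglycan, lies on the other strand. It was at 90.2% and 92.9% in WT and at 88.7% and 82.4% in ZNF274KO, without overlap. Of all 1 kb tiles, 21.9% were lower in this way.

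GNAS had several starts with very different levels. The first (57414773) was at 51.1% and 47.4% in WT and at 51.8% and 49.2% in ZNF274KO. The start of the antisense RNA GNAS-AS1 (57425958) was at 48.6% and 58.9% in WT and at 56.2% and 56.2% in ZNF274KO, so both of these starts were intermediate in both groups. The GNAS start at 57427769, less than 2 kb from it, was at 86.3% and 82.9% in WT and at 85.3% and 83.1% in ZNF274KO. A GNAS transcript starting at 57418380 had 81.1% in WT and 82.7% in ZNF274KO around its start, and a GNAS-AS1 transcript starting at 57415899 had 87.5% and 85.5%. These 3 starts were methylated throughout.

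The canonical GNAS start (57466357) was unmethylated, with 0.425% in WT and 0.881% in ZNF274KO over 147 CpGs. Of the 10 starts in the window, both ZNF274KO libraries were below both WT libraries at 3, and 21.9% of all 1 kb tiles were of this kind. One was the GNAS start at 57463468, with 74.96% and 60.9% in WT and 54.2% and 59.8% in ZNF274KO. The start at 57463864, on the other strand and in a stretch that overlaps it, belongs to a gene without a symbol (ENSG00000225806) and was at 52.2% and 42.9% in WT and at 32.7% and 39.2% in ZNF274KO. The start at 57452036 (ENSG00000270951, 15 CpGs) was at 79.8% and 74.2% against 68.9% and 62.04%. The 1 kb tile that holds the first 2 of these starts (chr20:57463000-57463999, 57 CpGs) was at 74.96% and 60.5% in WT and at 53.6% and 57.1% in ZNF274KO, a difference of -12.4 points with an adjusted p of 0.628 by edgeR. WT 1 was far above the other 3 libraries here. The remaining tile with an unadjusted p under 0.05, picked after its values were seen, was higher instead, with 80.7% and 75.7% in WT and 87.1% and 88.0% in ZNF274KO (chr20:57450000-57450999, 12 CpGs, adjusted p by edgeR 0.675).

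**Figure D5:**
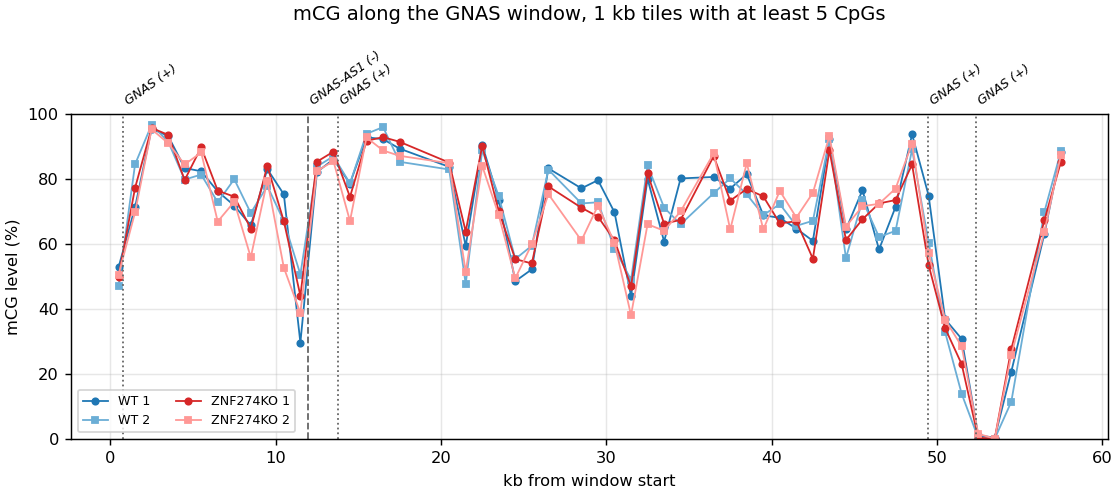
The mCG level (vertical axis, %) of 1 kb tiles with at least 5 CpGs along the GNAS window (horizontal axis, kb from the window start) in the 4 libraries, with vertical lines at start sites shared by at least 2 transcripts (dotted on the plus strand, dashed on the minus strand). The level falls to near 0 at the canonical GNAS start, with 0.425% in WT and 0.881% in ZNF274KO, and is intermediate at the first GNAS start and at the GNAS-AS1 start.

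At H19, the insulator protein CTCF is known to bind the control region only when its sites are unmethylated. A search on both strands for CCGC, then any 2 bases, then GG, any base and GGCAG found 5 matches in H19 and 0 in the other 9 windows, while 0.0832% of all 1 kb tiles with at least 10 CpGs held a match. The 5 matches lie on the minus strand of GRCh37 between positions 2021198 and 2024262, and are printed 5' to 3' on that strand with the match in capitals and 10 bases on either side. They are shown because their CpGs sit inside the match.
H19 match from 2021198: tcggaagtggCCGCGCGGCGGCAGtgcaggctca
H19 match from 2022010: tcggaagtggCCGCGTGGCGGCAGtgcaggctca
H19 match from 2023443: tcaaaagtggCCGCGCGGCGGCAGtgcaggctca
H19 match from 2023844: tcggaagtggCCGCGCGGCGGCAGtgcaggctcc
H19 match from 2024249: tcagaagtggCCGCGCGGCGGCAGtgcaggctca

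The match from 2021198 was the lowest in both group means, with levels of 9.68% and 20.7% in WT on 62 and 58 reads, and 44.8% and 8.82% in ZNF274KO on 29 and 34 reads. The other 4 matches had levels from 37.5% to 88.6% in single libraries. WT 1 was above WT 2 at each of those 4. Summed over the 19 CpGs of all 5 matches, the level was 53.7% and 34.5% in WT and 56.7% and 49.4% in ZNF274KO, on 164 to 178 reads per library, and the groups overlapped. Over the 128 CpGs from the first to the last match it was 47.7% ± 7.63 (SD, n = 2) in WT and 46.4% ± 2.91 (SD, n = 2) in ZNF274KO.

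ZFP57 binds the hexamer TGCCGC when its CpG is methylated. On both strands the windows held 73 matches, in 9 of the 10 windows, and PEG10 had 0. Of the 69 tiles of 1 kb, 31 (44.9%) held a match, and of all 1 kb tiles with at least 10 CpGs 13.0% did. The windows are rich in CpGs, at 22.5 to 62.4 per kb, and the share was not adjusted for this.

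In WT the mean level of the CpGs inside these hexamers was above that of the other CpGs of the window in each of the windows with matches except PLAGL1, and no test was made on these few CpGs. In GRB10 the 8 matches were at 99.1% in WT and 97.5% in ZNF274KO, in NNAT the 6 matches at 99.2% and 97.1%, and in MEG3 the 6 matches at 98.1% and 96.9%, where the other CpGs of MEG3 were at 83.8% and 82.1%. The 4 matches of DIRAS3 were at 95.5% in WT and 96.3% in ZNF274KO, against 77.1% and 74.3% at its other CpGs, and the 17 matches of GNAS at 78.5% and 78.0%, against 65.3% and 64.8%. In PLAGL1 the 6 matches were at 1.33% in WT and at 0% in ZNF274KO, where 0 of 110 reads allows a level of up to 2.73%. H19 had 12 matches at 52.8% and 56.3%, against 47.5% and 45.0% at its other CpGs. Each CTCF match of H19 also holds such a hexamer, so both searches share CpGs and reads there. The 8 matches of MEST were at 97.4% in WT and 94.5% in ZNF274KO, and its other CpGs at 91.9% in both groups. KCNQ1OT1 had 6 matches at 51.9% in WT and 31.7% in ZNF274KO, on 110 and 97 reads over both libraries of a group, a wider gap than at its other CpGs, which were at 36.6% and 33.5%. Its matches from 2720696, 2720724 and 2720751 lie so close that the same molecule can be counted at each. The spread between libraries is not given for the matches, so overlap of the groups cannot be judged.

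Genes of imprinting and genes beside the windows were examined by their promoters, 1000 bases on either side of the farthest upstream annotated start. For PLAGL1 (144385736), MEST (130126012), MEG3 (101245747), GRB10 (50861159) and H19 (2025782) that start lies outside the window. The promoters tested under these names are thus not at the starts inside the windows. Of 26 genes of imprint maintenance and methylation, maternal factors of the oocyte among them, edgeR called 0. Of 36 genes in and beside the windows, whose own imprinting was not examined, it also called 0. Over all promoters it called 127 of 37991, or 0.334%. At an unadjusted p under 0.05 there were 2 in the first list and 1 in the second, against 6.34% of all promoters by edgeR. Limma called 0 in both, with 0 at an unadjusted p under 0.05 against 6.08% of all promoters. The median differences were -0.31 and -0.38 points, and -0.25 points over all promoters.

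The promoters of the factors that keep imprints differed widely in level. The promoter of ZFP57 was at 87.6% in WT and 88.0% in ZNF274KO, whereas that of ZNF445 was at 3.79% and 4.27% and that of TRIM28 at 2.93% and 2.17%. The promoter of DNMT1, which copies methylation after replication, was at 7.71% and 8.13%. The promoter of SETDB1, a histone methyltransferase, was at 37.7% and 34.1% in the WT libraries and at 30.0% and 31.3% in the ZNF274KO libraries, lower in both (adjusted p by edgeR 0.902). The largest differences in this list were at ZNF483, a zinc finger gene, at 42.7% and 35.9% in WT and 30.8% and 22.9% in ZNF274KO (adjusted p by edgeR 0.681), and at NLRP5, a maternal factor of the oocyte, at 17.3% and 16.2% against 25.6% and 21.3% (adjusted p by edgeR 0.778). In both the groups did not overlap, but both were picked for the size of their difference, and neither passed the test. Of all 1 kb tiles, 21.9% were lower without overlap, like ZNF483 and SETDB1, and 14.3% were higher, like NLRP5. These shares were not counted over all promoters.

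In the list of genes in and beside the windows, the largest differences were at INS and MEG9. The INS gene encodes insulin and lies beyond IGF2 from H19, and MEG9 is a non-coding RNA gene beside MEG3. INS was at 56.0% and 58.5% in WT and at 68.1% and 64.9% in ZNF274KO, higher in both ZNF274KO libraries (adjusted p by edgeR 0.776). Of all 1 kb tiles, 14.3% were higher in this way. MEG9 was at 47.9% and 53.9% in WT and at 61.1% and 53.5% in ZNF274KO, with overlapping groups (adjusted p by edgeR 0.885).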

How the data were processed

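EM-seq was done on 2 WT and 2 ZNF274KO HEK293T libraries, with group and replicate number as in the labels. Mapping by the authors used hisat2 within the Msuite2 pipeline and the hg19 genome, to which rDNA was added, and they deposited raw read counts per CpG, strand and base call, 1 library at a time and without normalisation. Whether reads were filtered for mapping quality or duplicates is not given in the sources used here. A read spanning several CpGs is counted at each, so reads over CpGs are not independent molecules and counting error alone understates the uncertainty. Each of the 27710999 CpGs was found on a CG of GRCh37. Positions are counted from 1 in that build, and genes are from GENCODE release 44 mapped to it.

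Reads with C (methylated) and T (unmethylated) were summed over both strands of each window, of 10 kb and 1 kb tiles and of promoters. Regions needed 20 reads in every library and 5 CpGs (1 kb tiles 10). The quasi-likelihood test of edgeR 4.0.16 (R 4.3.3) was applied to these counts, in a model holding 1 term for every library and 1 for the log-odds of methylation in each group, and p-values were adjusted by the Benjamini-Hochberg method over all regions of a kind at a threshold of 0.05. The windows were fitted with the 10 kb tiles. Alternatives were limma 3.58.1 with a pseudocount of 1, single strands, a replicate block, levels centred on that of the genome, other minimums and tile sizes, the quasi-dispersion without a trend, and each library left out in turn. Python 3.11.15, numpy 2.4.6, pandas 2.3.3 and matplotlib 3.10.9 were used.

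All windows were named, and in each the 1 kb tile with the largest difference and any called tile. Of each promoter list any called promoter and the 2 with the largest difference were named, with the starts of GNAS and GNAS-AS1 and the CTCF matches of H19. Other starts, promoters and the printed stretches were added as descriptions. The sequence of 1 further stretch is not reported here. The windows and lists were chosen with earlier results of these data known.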

Additional observations from a re-analysis of the deposited data

How the results depend on the processing

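The count of called windows (0), 1 kb tiles (0) and promoters (0) was the same under every alternative run, apart from those that follow. When each library was left out in turn, 0 to 1 windows and 0 to 1 of the 1 kb tiles were called, in both cases GRB10 without ZNF274KO 2, where the lone ZNF274KO library is assumed to vary like the WT libraries. The labels do not say whether libraries with the same replicate number were prepared together. The correlation over 10 kb tiles of WT 1 minus WT 2 with ZNF274KO 1 minus ZNF274KO 2 was -0.134, so no shared shift was seen. With the replicate block, 1 of the 1 kb tiles was called (GRB10, adjusted p by edgeR 0.00199) and 0 windows and 0 promoters, while the called 10 kb tiles rose from 1424 to 2836. With the replicate numbers crossed between the groups, an alternative chosen after seeing the data, the counts were 0 windows, 1 tile and 0 promoters. Outside the windows, limma called 617 of the 10 kb tiles and 17 promoters, and leaving out a library gave 964 to 5105 of the 10 kb tiles.

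Leaving out each library in turn, the differences of the windows in points ranged from -2.11 to 0.44 for PLAGL1, -1.24 to 1.13 for MEST, -3.39 to 1.02 for PEG10, -4.77 to -1.13 for GRB10, -3.14 to -1.28 for H19, -6.95 to -0.17 for KCNQ1OT1, -2.70 to -0.87 for MEG3, -3.10 to 0.19 for NNAT, -1.61 to 0.74 for GNAS and -4.72 to -0.71 for DIRAS3. The unweighted mean over CpGs gave -0.72 for H19, 0.85 for NNAT, 0.08 for MEST, -0.64 for PEG10 and -1.59 for GNAS, and the groups of GNAS and PLAGL1 then did not overlap while those of H19 did. CpGs at 20% to 80% in WT, a choice made on the WT values themselves, were few in some windows. The differences on them were 15.1 for NNAT (7 CpGs), 1.20 for GRB10 (14), -5.60 for PLAGL1 (15) and 13.8 for MEST (20). They were 7.38 for PEG10 (46 CpGs), 2.74 for MEG3 (46) and -8.94 for KCNQ1OT1 (155). In DIRAS3 (44 CpGs), H19 (179) and GNAS (528) they were -1.50, -1.73 and -0.25. The cause of these shifts was not tested. Depth limits the short motif matches, with 19 to 62 reads per CTCF match and library and 67 to 410 reads per group over the ZFP57 matches of a window.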
